A study of Mus musculus with 8 samples.

Results

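The Slc39a genes code for the ZIP family of zinc importers, and 10 of them are described here in mouse Paneth cells: Slc39a1, Slc39a4, Slc39a5, Slc39a6, Slc39a7, Slc39a8, Slc39a9, Slc39a10, Slc39a13 and Slc39a14. The members were taken as the rows whose Ensembl gene ID carries one of these symbols in the GENCODE mouse annotation, which gave 10 of the 55414 genes in the table. The other 4 genes of the family, Slc39a2, Slc39a3, Slc39a11 and Slc39a12, served for comparison. Wild-type C57BL/6J mice drank Milli-Q water, or water with 25 mM ZnSO4, for 7 days, and Paneth cells were then collected from a suspension of the small intestine by fluorescence-activated sorting. Each group had 4 mice and 4 libraries, called here water and zinc replicates 1 to 4. Neither the age of these mice nor the zinc content of their food was found in the labels or methods.

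ZIP proteins move zinc into the cytosol, either from outside the cell or out of organelles, while the Slc30a (ZnT) proteins move it the opposite way and metallothioneins bind it. The transcription factor MTF-1 senses zinc and acts through metal response elements in the promoters of Mt1, Mt2 and Slc30a1. Paneth cells at the base of the intestinal crypts store zinc in their secretory granules together with antimicrobial peptides. Among the importers, ZIP4 is the main carrier of dietary zinc at the apical surface of the absorptive cells, and ZIP10 is a surface importer closely related to ZIP6.

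Levels are given as CPM (counts scaled to a common library size) on library sizes scaled by the trimmed mean of M-values (TMM). The libraries held 20760764 to 24117111 counts. A gene with no count could still have had up to 3 counts, or 0.115 to 0.188 CPM depending on the library, and this limit covers counting error only. The treatment labels were checked on 3 genes known to respond to zinc, all of which were higher in every zinc library than in any water library. Mt2, a metallothionein, was 3.95 ± 2.31 CPM (SD, n = 4) with water and 283 ± 116 CPM with zinc, with an adjusted p of 0.0198 by edgeR. Mt1 rose from 20.9 ± 7.48 to 264 ± 109 CPM (edgeR adjusted p = 0.0259). Slc30a1, the zinc exporter of the plasma membrane, rose from 2.51 ± 1.10 to 10.3 ± 2.31 CPM (edgeR adjusted p = 0.0198). The sum of 7 Paneth cell markers (Lyz1, Defa24, Itln1, Mmp7, Ang4, Pla2g2a and Mptx2) was 324000 to 624000 CPM with water and 307000 to 627000 CPM with zinc, and replicate 1 was the highest and replicate 4 the lowest in both groups. These sums are on the scaled library sizes.

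None of the 10 members passed the adjusted threshold of 0.05 in the edgeR test, in either direction. Of the 11988 genes tested, 0.0584% were called lower with zinc and 0.025% higher. Without adjustment, Slc39a4 and Slc39a10 passed the same threshold in edgeR, and both were lower with zinc, as were 2.81% of all tested genes at that level. The median log2 fold change of the members was -0.03, beside 0.009 over all tested genes. Sorted cells are a bulk sample, so fewer cells of a type and less RNA per cell cannot be told apart.

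**Figure D1:**
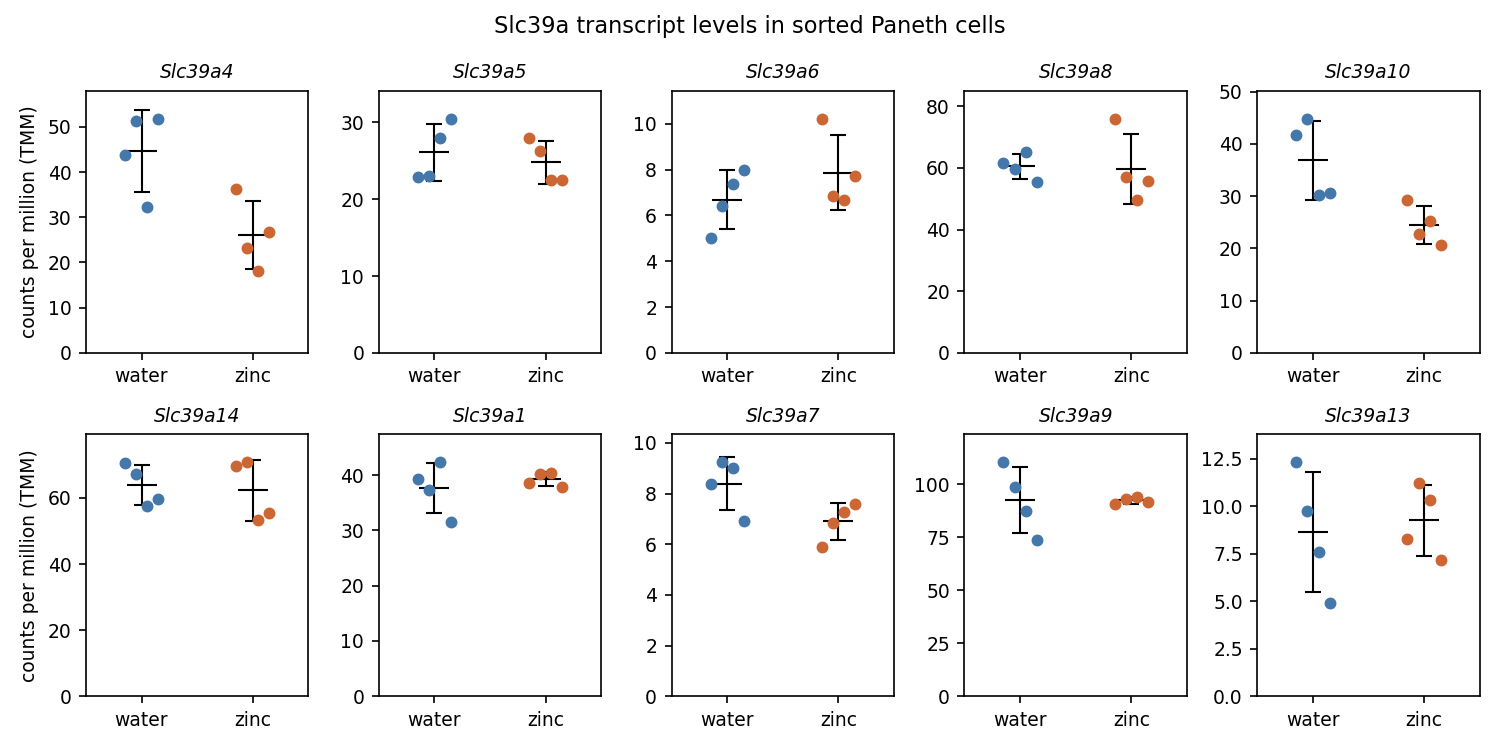
Level of each of the 10 members in the 4 water and 4 zinc libraries, in CPM on TMM library sizes, with the vertical axis of each panel starting at 0. Points are libraries and black bars are the mean ± SD. The water and zinc points of Slc39a10 do not overlap, those of Slc39a4 overlap through zinc replicate 1, and those of the other 8 members overlap.

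Slc39a4 (ENSMUSG00000063354, GRCm39 chr15:76496580-76504172, minus strand) is the apical importer of dietary zinc. Antisense lncRNAs of the annotation (Gm62519 and Gm62526) cover 24.6% of its exon bases, and neither is among the genes of the deposited counts. Its level was 43.7, 51.3, 32.3 and 51.7 CPM in water replicates 1 to 4, and 36.2, 23.2, 18.1 and 26.8 CPM in zinc replicates 1 to 4. Zinc replicates 2, 3 and 4 lay below every water library, while zinc replicate 1 lay above water replicate 3, so the groups overlapped. The means were 44.7 ± 9.06 and 26.1 ± 7.62 CPM (SD, n = 4 each). The log2 fold change was -0.78 (SE 0.20, 95% interval -1.22 to -0.34), or 0.581 times the water level, and the edgeR adjusted p was 0.513 (0.00205 before adjustment). Without zinc replicate 1, through which the groups overlapped, the log2 fold change was -0.98 with an edgeR adjusted p of 0.0499. In that fit 0.0819% of all genes were called lower. Leaving out any other library gave an edgeR adjusted p of 0.312 to 0.998. On library totals the edgeR adjusted p was 0.739, and limma-voom gave 0.307. DESeq2 gave a log2 fold change of -0.79 with an adjusted p of 0.0306, beside 0.195% of genes called lower. Without the low-count filter the edgeR adjusted p was 6.89e-06, beside 0.264% of genes called lower. The log2 fold change in that fit was again -0.78, and its SE was 0.13 in place of 0.20. Slc39a1, Slc39a8, Slc39a10, Slc39a11 and Slc39a14 had the same SE of 0.13 there. The smaller p of Slc39a4 in that fit came with a smaller SE and without a larger difference. A p also depends on the degrees of freedom of its fit, which were not compared.

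Slc39a10 (ENSMUSG00000025986, GRCm39 chr1:46845872-46964964, minus strand) codes for a zinc importer of the plasma membrane. Its level was 41.8, 44.8, 30.3 and 30.6 CPM in water replicates 1 to 4, and 29.2, 22.8, 25.3 and 20.7 CPM in zinc replicates 1 to 4. Every zinc library was below every water library, and water replicates 3 and 4 were the nearest to the zinc group. It was the only member whose groups did not overlap, and over all tested genes 1.59% had all zinc libraries below all water libraries. The means were 36.9 ± 7.50 and 24.5 ± 3.66 CPM, and the log2 fold change was -0.59 (SE 0.15, 95% interval -0.91 to -0.27), or 0.664 times the water level. The unadjusted p was 0.00104 and the edgeR adjusted p 0.388. DESeq2 gave an adjusted p of 0.0993, limma-voom 0.443 and edgeR without zinc replicate 2 0.998. The edgeR fit without the low-count filter gave 0.0079, beside 0.264% of genes called lower. The log2 fold change in that fit was again -0.59, with an SE of 0.13 in place of 0.15. As for Slc39a4, this p does not rest on the SE alone.

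Together Slc39a4 and Slc39a10 held 85.4, 96.0, 62.6 and 82.3 CPM in water replicates 1 to 4 and 65.4, 46.0, 43.4 and 47.6 CPM in zinc replicates 1 to 4. They made up 21.1% ± 3.04 of the members' summed CPM with water and 14.2% ± 1.72 with zinc. The other 8 members summed to 304 ± 24.9 CPM with water and 302 ± 20.8 CPM with zinc. Since these 2 genes were singled out by their values, the sums are a description.

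**Figure D2:**
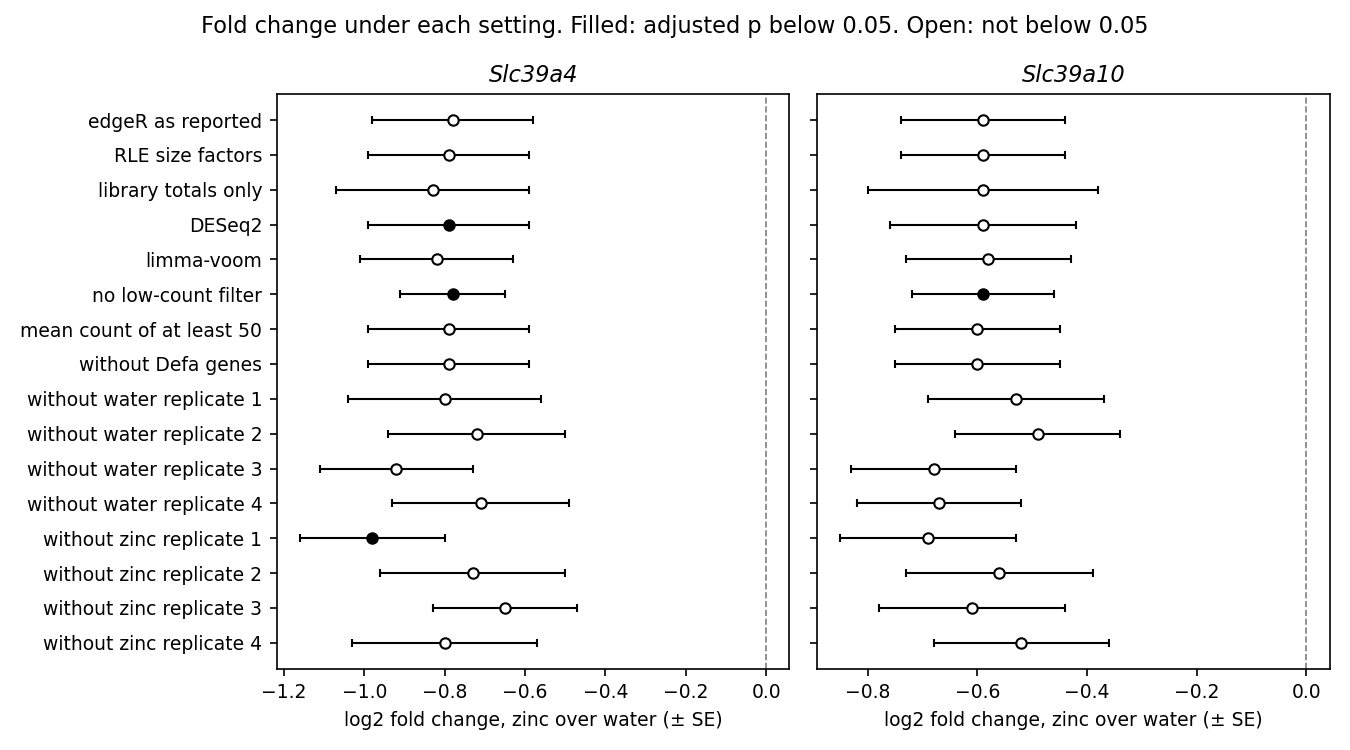
Log2 fold change of Slc39a4 and Slc39a10 with its standard error under edgeR as reported and 15 alternative settings; filled points have an adjusted p below 0.05. Both genes lie below 0 in all 16 fits, and the filled points are 3 for Slc39a4 and 1 for Slc39a10. The fit with the replicate number as a block, in which both genes also passed, is not drawn and stands with the alternatives after the report.

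The promoter windows of Slc39a10 are shown because it had the smallest p of the members in the edgeR fit as reported (Slc39a4 had the smaller p in some alternatives, among them DESeq2 and voom), beside the window of Mt2, a gene that rose with zinc. The windows are the 250 bases before the annotated start in RefSeq (GRCm38.p6), printed 5′ to 3′ on the gene's strand. Slc39a4, Slc39a6 and Slc39a14 have no entry. Capitals mark matches to the core metal response element, searched as TGCACNC and TGCGCNC on both strands with N for any base.
Slc39a10, chr1:46925777-46926026: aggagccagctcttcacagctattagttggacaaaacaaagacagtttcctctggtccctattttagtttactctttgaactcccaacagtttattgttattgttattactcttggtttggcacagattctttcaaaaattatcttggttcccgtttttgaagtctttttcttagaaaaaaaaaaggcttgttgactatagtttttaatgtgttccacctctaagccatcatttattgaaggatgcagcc
Slc39a10, chr1:46853619-46853868: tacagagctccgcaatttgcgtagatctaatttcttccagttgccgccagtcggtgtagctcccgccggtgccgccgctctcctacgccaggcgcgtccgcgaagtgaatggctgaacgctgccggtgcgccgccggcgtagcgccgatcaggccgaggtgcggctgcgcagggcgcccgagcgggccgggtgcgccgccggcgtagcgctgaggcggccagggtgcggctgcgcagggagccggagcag
Mt2, chr8:94172368-94172617, plus strand: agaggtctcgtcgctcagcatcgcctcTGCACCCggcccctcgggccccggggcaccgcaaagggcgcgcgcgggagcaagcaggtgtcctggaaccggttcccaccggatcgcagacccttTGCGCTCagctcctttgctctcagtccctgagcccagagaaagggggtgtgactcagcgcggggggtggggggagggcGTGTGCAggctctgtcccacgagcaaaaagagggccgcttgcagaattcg
Neither window of Slc39a10 held these letters. The Mt2 window held 3 matches before the start. Windows that also took in the 50 bases after the start were searched too, and 7 of the 10 members had such windows, some of them more than 1. Of the 10 windows of these members, 3 (30%) held a match, beside 25.7% of all 32851 windows. The matches were in 1 window each of Slc39a5, Slc39a8 and Slc39a13. These are letter matches only.

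Among the members at the cell surface, Slc39a5, Slc39a8, Slc39a14, Slc39a1 and Slc39a6 differed between the groups by less than their spread. Slc39a5 (GRCm39, as for all members below, chr10:128231799-128237121), a basolateral importer, was 23.0, 23.0, 28.0 and 30.4 CPM with water and 28.0, 26.3, 22.5 and 22.5 CPM with zinc. Its groups overlapped, and the log2 fold change was -0.08 (95% interval -0.35 to 0.20). Slc39a8 (chr3:135531040-135594333) and Slc39a14 (chr14:70540678-70588914) code for importers that also carry manganese and iron. Slc39a8 was 61.7, 59.7, 65.3 and 55.6 CPM with water and 75.8, 57.0, 49.6 and 55.8 CPM with zinc. Zinc replicates 1 and 3 were the highest and the lowest of all 8 libraries, and the log2 fold change was -0.02 (95% interval -0.29 to 0.24). Slc39a14 was 70.6, 67.2, 57.7 and 59.8 CPM with water and 69.5, 70.8, 53.4 and 55.4 CPM with zinc, with a log2 fold change of -0.04 (95% interval -0.29 to 0.22).

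Slc39a1 (chr3:90155138-90160924), a widely expressed importer, was 39.3, 37.3, 42.3 and 31.6 CPM with water and 38.6, 40.3, 40.5 and 37.9 CPM with zinc. The zinc libraries lay inside the range of the water libraries, and the log2 fold change was 0.06 (95% interval -0.18 to 0.30). Slc39a6 (chr18:24711955-24736969), the relative of Slc39a10, was 5.0, 6.40, 7.36 and 7.98 CPM with water and 10.2, 6.86, 6.68 and 7.72 CPM with zinc. Only zinc replicate 1 was above all water libraries, and the log2 fold change was 0.22 (95% interval -0.20 to 0.64). Its lowest count was 80, with an exact Poisson 95% interval of 63.4 to 99.6 that covers counting error only.

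The members that act mainly on organelles showed no difference past the threshold either. Slc39a9 (chr12:80690657-80730116), placed mainly at the Golgi, was 110.4, 98.6, 87.3 and 73.7 CPM with water and 90.6, 93.1, 94.2 and 91.8 CPM with zinc. Its zinc libraries lay close together (SD 1.58 CPM) inside a wide water range (SD 15.7 CPM), and the interval of the log2 fold change was -0.26 to 0.26. Slc39a13 (chr2:90892122-90900916), of the Golgi and intracellular vesicles, was 12.3, 9.75, 7.57 and 4.93 CPM with water and 8.25, 11.3, 10.4 and 7.18 CPM with zinc, with a log2 fold change of 0.11 (95% interval -0.40 to 0.62). This was the widest interval among the members.

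Slc39a7 (chr17:34247243-34250656), which releases zinc from the endoplasmic reticulum, was 8.38, 9.24, 9.01 and 6.91 CPM with water and 5.88, 6.86, 7.27 and 7.60 CPM with zinc. Water replicate 4 lay within the zinc range, and the log2 fold change was -0.28 (95% interval -0.64 to 0.09, unadjusted p = 0.128, edgeR adjusted p = 0.998). The lncRNA Gm20427 covers 78.3% of the exon bases of Slc39a7 on the same strand and held 0 to 6 counts. No source read here says how reads in such an overlap were counted, and the level of Slc39a7 is therefore uncertain.

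**Figure D3:**
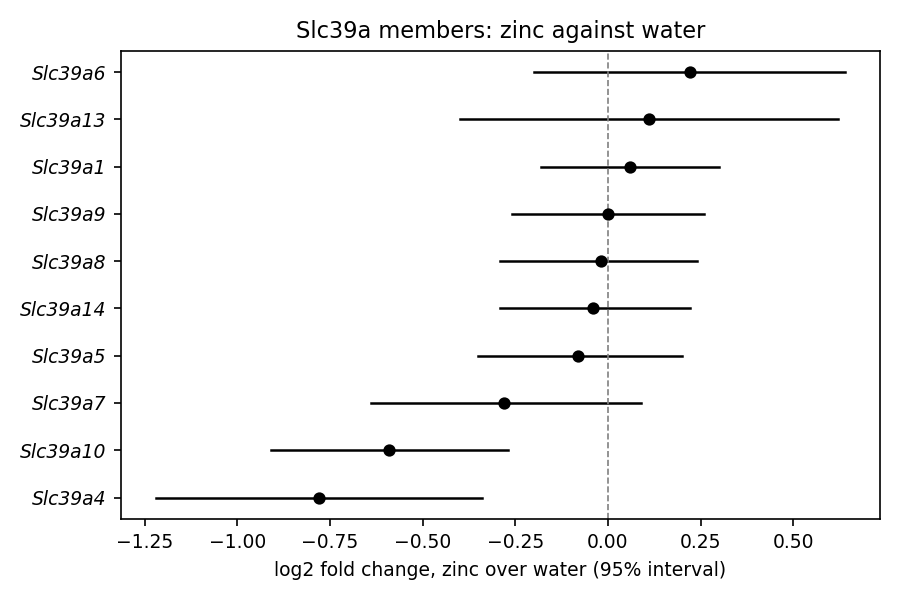
Log2 fold change of zinc over water for the 10 members from the edgeR fit, with 95% intervals as lines and 0 as a dashed line. The intervals of Slc39a4 (-1.22 to -0.34) and Slc39a10 (-0.91 to -0.27) lie below 0, and those of the other 8 members include 0.

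Per length, the members were ordered by CPM per kilobase of merged exons over all 8 libraries. Slc39a5 was first with 11.3 ± 1.38 (SD, n = 8), ahead of Slc39a9 (9.02 ± 1.00), Slc39a1 (8.94 ± 0.745), Slc39a4 (8.50 ± 3.03) and Slc39a8 (7.61 ± 0.999). The ranges of neighbours among these 5 overlapped. Slc39a14 followed with 5.22 ± 0.600 per kilobase and was below Slc39a8 in all 8 libraries. The low group held Slc39a7 (2.87 ± 0.435), Slc39a10 (2.52 ± 0.704), Slc39a13 (1.64 ± 0.443) and Slc39a6 (0.643 ± 0.133), and Slc39a6 was the lowest in all 8 libraries. Slc39a4 ranked 2 among the water means and 5 among the zinc means, while Slc39a10 ranked 8 in both.

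The order among the high members depended on the length used. With the longest coding transcript, Slc39a9 (16.6 ± 1.85) and Slc39a8 (15.7 ± 2.06) came first. A further length, chosen after the overlap of Slc39a7 was seen, took only the exon bases that no other gene shares on either strand. The whole count was divided by this length, and Slc39a7 moved from rank 7 to rank 1 at 13.2 ± 2.00 per kilobase. That level holds only if no read in the shared bases was counted, which is not known.

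**Figure D4:**
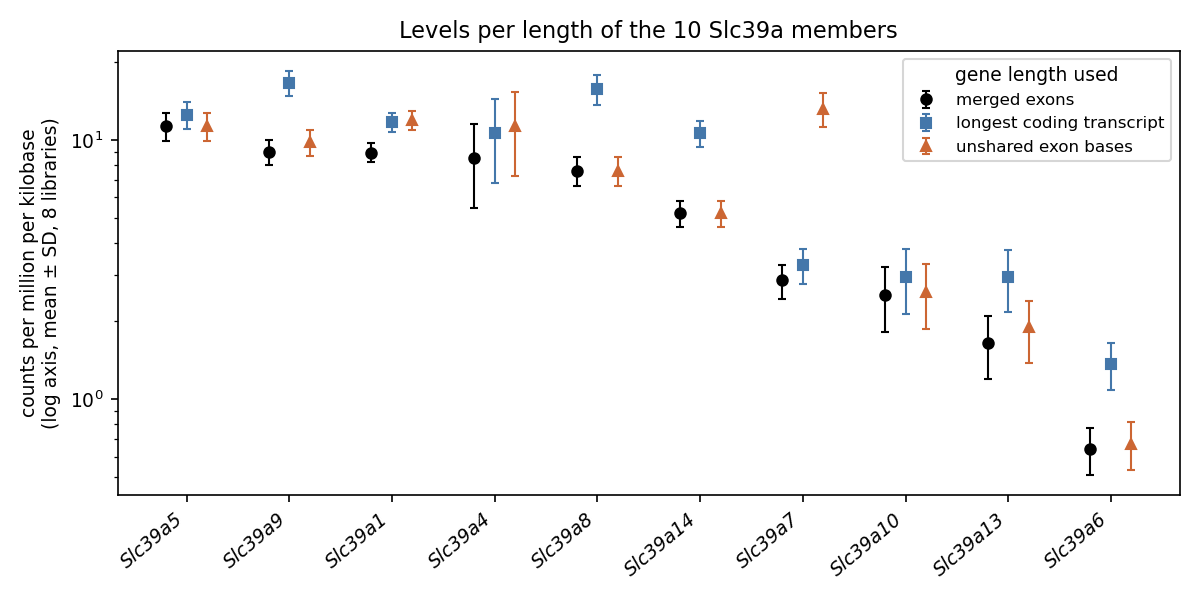
Level of each member in CPM per kilobase on a log axis, as mean ± SD over 8 libraries, with 3 definitions of gene length. Slc39a6 is the lowest under each, and Slc39a7 changes place the most.

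In the rest of the family, Slc39a11 was higher per kilobase than every member under each length (26.2 ± 4.19 with merged exons). It was 180.6 ± 25.0 CPM with water and 194.9 ± 36.7 CPM with zinc, a log2 fold change of 0.11 (95% interval -0.18 to 0.40). Slc39a3 was 14.1 ± 1.81 and 14.2 ± 1.47 CPM. Slc39a2 held 0 to 9 counts and Slc39a12 held 0 counts in all 8 libraries. Of the 29 zinc handling genes listed (the Slc39a and Slc30a families, 4 metallothioneins and Mtf1), 23 were tested, and 3 rose, 0 fell and 20 did not pass. The 3 were Mt1, Mt2 and Slc30a1. Without water replicate 2 none of the 3 passed, and without water replicate 1 or water replicate 4 only Slc30a1 did. Mt1 was lost without water replicate 3, zinc replicate 1 or zinc replicate 4, and Slc30a1 was lost without zinc replicate 2 and on library totals. None of the other 6 Slc30a exporters tested passed the threshold, and neither did Mtf1.

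Markers of other cells were read beside Slc39a4 and Slc39a10. Of 13 enterocyte markers, 7 stayed under 3 CPM in every library (Fabp1, Apoa1, Apoa4, Alpi, Lct, Rbp2 and Slc15a1), and the list summed to 391 to 479 CPM with water and 404 to 477 CPM with zinc, with Anpep as its largest part. Of the 9 enterocyte markers tested, 6 had a log2 fold change above 0 and 3 below, among them Fabp2 (0.28), Slc5a1 (0.18), Anpep (-0.09), Apob (-0.18) and Mttp (-0.27). The brush border enzyme Sis is named because its log2 fold change was the largest (2.49, edgeR adjusted p = 0.852). Sis was 1.63 to 2.86 CPM with water and 2.38, 22.8, 13.0 and 7.80 CPM in zinc replicates 1 to 4. It was highest in zinc replicates 2 to 4, where Slc39a4 was lowest. The 6 stem cell markers summed to 4570 to 5950 CPM with water and 3230 to 4670 CPM with zinc, mostly from Olfm4 (edgeR log2 fold change -0.48, adjusted p = 0.998). The log2 fold changes of the rest were -0.24 (Ascl2), -0.08 (Axin2), -0.03 (Rgmb), -0.02 (Lgr5) and 0.06 (Smoc2). The goblet markers summed to 8650 to 14800 and 10800 to 14200 CPM, the tuft markers to 14 to 120 and 17.1 to 81.7 CPM, and the enteroendocrine markers to 42.5 to 111 and 45.7 to 71.2 CPM. The immune markers summed to 113 to 211 and 12.4 to 143 CPM, nearly all from Cd74, which was 142.3 CPM in zinc replicate 3, where Slc39a4 was lowest. The other 6 immune markers and the 6 stromal markers stayed under 3 CPM in every library. Through Olfm4 and Cd74, the ranges of the stem and immune sums lay lower with zinc, as did those of Slc39a4 and Slc39a10. Sums carried by so few genes do not measure the share of stem or immune cells. The part of these sums and of Sis in the values of both genes was not tested.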

How the data were processed

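The authors deposited 1 table of raw read counts per Ensembl gene, with 1 column for each of the 8 libraries and no normalization. The submitters' processing notes name FastQC 0.12.0, STAR 2.7.0a, DESeq2 and the mm39 build. The sources used here give no counting program, strand setting or treatment of reads shared by genes. Libraries were made with a stranded mRNA kit. Symbols and coordinates came from GENCODE M39 on GRCm39, which matched 54749 of 55414 IDs. Counts of any 2 libraries of 1 group (12 pairs) differed beyond sampling noise, with a chi-square per degree of freedom of at least 32, and each mouse was taken as 1 replicate.

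The zinc and water groups were tested with edgeR 4.0.16 (R 4.3.3), with treatment as the only term. The settings were the default low-count filter, TMM, a robust quasi-likelihood F test, and Benjamini-Hochberg over all genes tested, threshold 0.05. The procedure was tested on simulated counts, in which all set changes were larger than those of Slc39a4 and Slc39a10 in the fit as reported. Each standard error was the size of the log2 fold change divided by the root of its F value. Alternatives used DESeq2 1.42.0, limma 3.58.1 (voom), other scalings and filters, a replicate block, no Defa genes, and each library left out. The members and lists were chosen with earlier results of these data known. All 10 members, the 4 other family genes, Mt1, Mt2, Slc30a1 and any other zinc handling gene past the threshold were named. One gene of the enterocyte marker list is not reported here, and the list was summed without it.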

Additional observations from a re-analysis of the deposited data

Results flagged for a closer look

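In 30 groups of 4 libraries, 3 had a highest or lowest library far from the other 3 by Dixon's test at its 95% level, where chance flags about 1 in 20. Slc39a11 was 249.2 CPM in zinc replicate 1 against 171.7 to 184.8 CPM in zinc replicates 2 to 4. Mt1 was 425.2 CPM and Mt2 was 455.3 CPM in zinc replicate 2, against 188.9 to 223.0 and 205.1 to 239.8 CPM in the others. On library totals in place of TMM sizes, the 3 Dixon ratios were 0.61, 0.623 and 0.585, under the critical value. None of the 10 members was among the 3.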

How the results depend on the processing

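Slc39a4 and Slc39a10 were lower with zinc in all 16 alternatives, at log2 fold changes of -0.98 to -0.65 and -0.69 to -0.49. The number of members past the threshold was 0 in edgeR, 1 with DESeq2, 2 without the low-count filter and 2 with a replicate block. It was 0 to 1 when 1 library was left out, with Slc39a4 called without zinc replicate 1. Of all genes tested, 0.195% were called lower with DESeq2 and 0.264% without the filter. The shares were 0.217% with the replicate block and 0.0819% without zinc replicate 1. The deviations of same-numbered libraries had correlations of 0.213, -0.017, 0.123 and 0.232 for numbers 1 to 4. Water replicates 1, 3 and 4 were most like the zinc replicate of their number, and water replicate 2 was most like zinc replicate 4. Same-numbered libraries had close TMM factors (0.764 and 0.775, 1.017 and 0.998, 1.066 and 1.05, 1.213 and 1.225 for water and zinc). Because number 2 was not correlated, the numbers were not taken to pair the mice, and a shared batch remains possible. The replicate block gave adjusted p-values of 0.00858 for Slc39a4 and 0.0381 for Slc39a10 and raised the genes called from 10 to 32, and in it Mt1 and Mt2 no longer passed. All genes called were 36 of 14357 with DESeq2 and 66 of 20836 without the filter. Leaving out 1 library gave 1 to 15 (1 without water replicate 2, 3 without zinc replicate 2 and 4 without water replicate 3). Zinc handling genes called were 5 without the filter, and 0 to 3 with 1 library left out (0 without water replicate 2, and 1 without water replicate 1 or 4). The cause of these moves was not tested.

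Several members, and Slc39a3 and Slc39a11 of the comparison genes, changed sign under some settings. Slc39a9 was 0.029 on library totals, 0.016 with voom, 0.003 without the filter and 0.016 with the replicate block. With 1 library left out, the ranges were -0.016 to 0.121 for Slc39a1, -0.14 to 0.002 for Slc39a5, -0.164 to 0.046 for Slc39a8, -0.098 to 0.094 for Slc39a9, -0.091 to 0.321 for Slc39a13, -0.103 to 0.025 for Slc39a14, -0.046 to 0.106 for Slc39a3 and -0.032 to 0.206 for Slc39a11. Levels per kilobase moved by more than the spread for 6 of 10 members with the longest coding transcript. They did so for 2 with unshared exon bases (Slc39a1 and Slc39a7), and for 0 on library totals or with a library left out. The antisense lncRNA Gm66066 covers 25.2% of the exon bases of Slc39a1 and is not among the genes of the deposited counts. With 4 mice a group, the intervals of the other 8 members reach 0.24 to 0.51 on either side of the estimate, and smaller differences could not be resolved.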
